A study of Homo sapiens with 3 samples.

Results

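The heat shock chaperones of the cytosol and the mitochondria were described here as 35 named genes in HT29, an established human cell line that was derived from a colorectal adenocarcinoma. Every probe set whose platform annotation names one of these genes was taken. This gave 81 of the 54613 non-control probe sets, for 33 of the 35 genes, and the expression of AHSA1 and HSF2 was not analysed here. Of the 81 sets, 12 are annotated to more than 1 gene. Sets for HSPA1A and HSPA1B serve both genes, since their products are nearly identical, and those of HSPA8 and TCP1 also carry the names of small nucleolar RNA genes. The series holds 3 Affymetrix arrays of HT29 cells transduced by lentivirus: 1 of cells with an empty vector and 2, titled as replicates, of cells with a construct for miR-146a. All cells were grown in serum-supplemented DMEM. The labels name neither the promoter that drives the construct nor whether the lines are clones or pools.

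Chaperones bind proteins that are not yet folded, or no longer folded, and keep them from aggregating. HSP70 works in cycles with J-domain proteins, which deliver clients and stimulate ATP hydrolysis, and with exchange factors, which release ADP. HSP90 acts on late folding states of kinases and steroid receptors, and the chaperonins enclose clients in a chamber. Heat shock factor 1 drives the stress-inducible members through heat shock elements, which are inverted repeats of the unit NGAAN. The microRNA miR-146a is best known as a brake on innate immune receptor signalling. None of this background is a result of these arrays.

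HT29 identity was checked first. All 12 colon epithelium markers were above the filter on low signal, a log2 value of 5.13 that is the median of the non-control sets. EPCAM, KRT8 and KRT18 differed from the vector by -0.01, 0.05 and 0.02, but CEACAM5 differed by -1.35 (its other set above the filter by 0.00), CDH17 by -0.54 and KRT20 by -0.24. These epithelial markers were lower on the same arrays as the chaperone sets below, and their part was not tested; CDX2 was at 0.07. Among markers of other cells, 3 of 6 for leukocytes, 3 of 8 for fibroblasts and 1 of 5 for endothelium were above the filter. The lysozyme gene LYZ read 12.95 in the vector and 12.72 and 12.96 in the miR-146a arrays, CD14 differed by 0.17 and COL1A1 by -0.16, while PTPRC, CD3E, COL3A1 and CDH5 were below the filter on all arrays. The median log2 values of the 3 arrays were 5.13 (vector), 5.14 and 5.12. The SD of the difference between the miR-146a arrays over the 27306 probe sets above the filter was 0.13, and against the vector it was 0.22 for replicate 1 and 0.21 for replicate 2. Nothing in the labels says that the replicates are separate cultures. Every p-value therefore reflects only how these arrays vary, possibly for technical reasons, and the vector stands on a single array. In bulk RNA of this kind, fewer cells with a transcript and less of it per cell cannot be told apart.

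Promoter sequences are shown for members picked for lower readings, for likeness to each other or for runs of heat shock element letters. Whether these letters bear on the readings was not tested. The letters searched were GAANNTTC and TTCNNGAA (a pair of units), and GAANNTTCNNGAA and TTCNNGAANNTTC (a run of 3 units), in the 250 bases before each start in the RefSeq table (GRCh38.p14). Each pair is its own reverse complement and the runs are reverse complements of each other, so both strands were covered, and every run also contains pairs. Capitals mark the matches, and all sequences run 5′ to 3′ on the gene's strand. The windows of HSPB1 (chr7:76302423-76302672, plus strand), DNAJB1 (chr19:14518398-14518647, minus strand) and DNAJB4 (chr1:78004689-78004938, plus strand) belong to the 3 genes whose every set above the filter read lower in both arrays by at least 0.322 (log2), a ratio of 5 to 4.
HSPB1: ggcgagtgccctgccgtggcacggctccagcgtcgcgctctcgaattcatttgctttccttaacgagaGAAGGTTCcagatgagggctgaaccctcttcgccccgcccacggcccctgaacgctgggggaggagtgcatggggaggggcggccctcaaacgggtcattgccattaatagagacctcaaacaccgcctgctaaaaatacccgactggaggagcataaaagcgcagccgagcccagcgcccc
DNAJB1: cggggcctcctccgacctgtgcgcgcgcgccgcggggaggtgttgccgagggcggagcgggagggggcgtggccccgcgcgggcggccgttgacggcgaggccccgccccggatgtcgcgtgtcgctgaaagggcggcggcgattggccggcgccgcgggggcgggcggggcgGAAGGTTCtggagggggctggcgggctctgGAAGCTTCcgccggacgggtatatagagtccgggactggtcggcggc
DNAJB4: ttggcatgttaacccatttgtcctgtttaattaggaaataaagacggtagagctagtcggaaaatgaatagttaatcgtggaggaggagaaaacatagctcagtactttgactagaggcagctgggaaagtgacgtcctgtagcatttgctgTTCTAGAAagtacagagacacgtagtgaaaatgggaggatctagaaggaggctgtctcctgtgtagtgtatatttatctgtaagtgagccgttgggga
DNAJB1 and DNAJB4 have other listed starts, and their windows hold no match. The next pair shows how alike the inducible HSP70 genes are, with HSPA1A at chr6:31815293-31815542 and HSPA1B at chr6:31827488-31827737, both on the plus strand. An alignment of these windows gave 93.6% identity.
HSPA1A: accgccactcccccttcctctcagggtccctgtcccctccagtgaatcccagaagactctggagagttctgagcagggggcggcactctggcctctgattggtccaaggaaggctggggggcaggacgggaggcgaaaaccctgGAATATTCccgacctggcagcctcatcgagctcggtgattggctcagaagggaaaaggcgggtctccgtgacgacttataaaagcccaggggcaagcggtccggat
HSPA1B: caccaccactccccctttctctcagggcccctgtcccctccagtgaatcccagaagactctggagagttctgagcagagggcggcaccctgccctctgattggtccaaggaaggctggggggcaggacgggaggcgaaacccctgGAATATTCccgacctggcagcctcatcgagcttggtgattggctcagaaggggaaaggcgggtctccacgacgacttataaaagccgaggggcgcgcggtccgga
The last windows carry runs of 3 units, in HSPA8 (chr11:123062137-123062386, minus strand), whose 4 sets read lower by -0.15 to -0.34, and in HSP90AB1 (chr6:44247693-44247942, plus strand), whose 3 sets gave -0.01, -0.20 and -0.43. HSP90AB1 also has other listed starts, whose windows hold no match. HSPD1, HSP90AA1 and DNAJB6 carry such runs as well, are not shown, and had leading sets at 0.02, -0.02 and -0.15.
HSPA8: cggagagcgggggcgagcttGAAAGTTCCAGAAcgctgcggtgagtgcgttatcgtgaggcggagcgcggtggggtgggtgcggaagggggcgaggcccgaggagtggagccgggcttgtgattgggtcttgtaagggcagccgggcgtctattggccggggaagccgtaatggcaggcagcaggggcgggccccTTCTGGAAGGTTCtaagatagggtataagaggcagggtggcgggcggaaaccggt
HSP90AB1: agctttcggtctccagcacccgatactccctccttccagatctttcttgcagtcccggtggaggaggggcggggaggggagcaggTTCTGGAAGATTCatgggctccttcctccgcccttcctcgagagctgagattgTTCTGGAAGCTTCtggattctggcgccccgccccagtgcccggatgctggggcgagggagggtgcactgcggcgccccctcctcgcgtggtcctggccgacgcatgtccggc

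A pair of units was present before a start of 15 of the 32 members found in the promoter table (46.9%), against 14.0% of 27305 genes; the 32 include AHSA1 and HSF2, which have no match. A run of 3 units was present in 5 members (15.6%), against 0.557% of genes; these were HSPA8, HSPD1, HSP90AA1, HSP90AB1 and DNAJB6. Over the 30 of these members that also have a probe set, the median log2 difference of the leading set was -0.09 for the 15 with a pair (from -0.52 to 0.02) and 0.04 for the 15 without (from -0.15 to 0.26). For the 5 with a run of 3 units it was -0.02, against -0.03 for the 25 without one. Over all sets above the filter, 15 of 18 were lower in both arrays with such a run and 27 of 50 without, where 33.1% of all probe sets were. The 18 sets come from only 5 genes, and sets of the same gene are not independent readings. HSPA1A and HSPA1B share all 3 of their sets, and each of these is counted for both genes here, also in the 27 of 50. The leading set is the gene's set with the highest average signal, taking sets of that gene alone before shared ones. No match was found for HSPH1, STIP1, DNAJA2, BAG3, HSPA9, HSPA4, DNAJC7, PTGES3 and FKBP5, each of which had a set that read lower in both arrays. These are counts of letters in a short window, not of sites bound by a factor. The members were listed as heat shock genes, so their share of matches is no result of these arrays.

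As a whole, the chaperone sets leaned to lower values in the miR-146a arrays. Of the 72 member sets above the filter, 43 read below the vector on both replicates and 17 above it on both, where 33.1% and 36.0% of all probe sets did. Past a size of 0.322 on the log2 scale in both arrays, 10 sets of 8 genes were lower (3.99% of all probe sets) and 2 sets, of BAG1 and BAG2, were higher (3.54% of all probe sets). The median log2 difference of the 72 sets, miR-146a mean minus vector, was -0.10 (-0.10 and -0.07 in replicates 1 and 2), against 0.00 over all sets. Taking only the leading set of each gene, the lean was smaller. Of 31 such sets above the filter, 17 read lower in both arrays (28.8% of all genes) and 9 higher in both (40.2% of all genes). Past the size of 0.322, 3 were lower (1.95% of all genes) and 0 higher (3.79% of all genes). Their median was -0.02, against 0.01 over all genes. The values over all genes come from sets annotated to 1 gene, while the 31 also include sets shared between genes. With shared sets left out, 14 leading sets were lower in both arrays and 9 higher. On these arrays the control sets at the 5′ ends of ACTB and GAPDH also read below the vector, by -0.18 to -0.32, and their part in the lean was not tested.

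Limma called no member set at an adjusted p of 0.05 (0.00% of all sets), and the smallest adjusted p among the 72 was 0.131. That value was also the smallest over all 27306 sets and is shared by several member sets, so it does not rank them. On simulated arrays with ties placed as in the data this fit called none of the changed sets, so the count of 0 does not show that the members were unchanged. At an unadjusted p under 0.05, 19 member sets were lower (10.9% of all sets) and 3 higher (12.4%). In 3424 of the 27306 sets the replicates were identical (tolerance 0), which left limma a prior of 0.558 degrees of freedom. With the prior taken from sets whose replicate values differ, 11 member sets of 9 genes were lower at an adjusted p of 0.05 (4.78% of all sets) and 2 higher (4.14%). That setting made more false calls on simulated arrays than its threshold names, so its adjusted p-values are given as a description of rank. Both tests take the single vector array to vary like the miR-146a arrays.

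**Figure D1:**
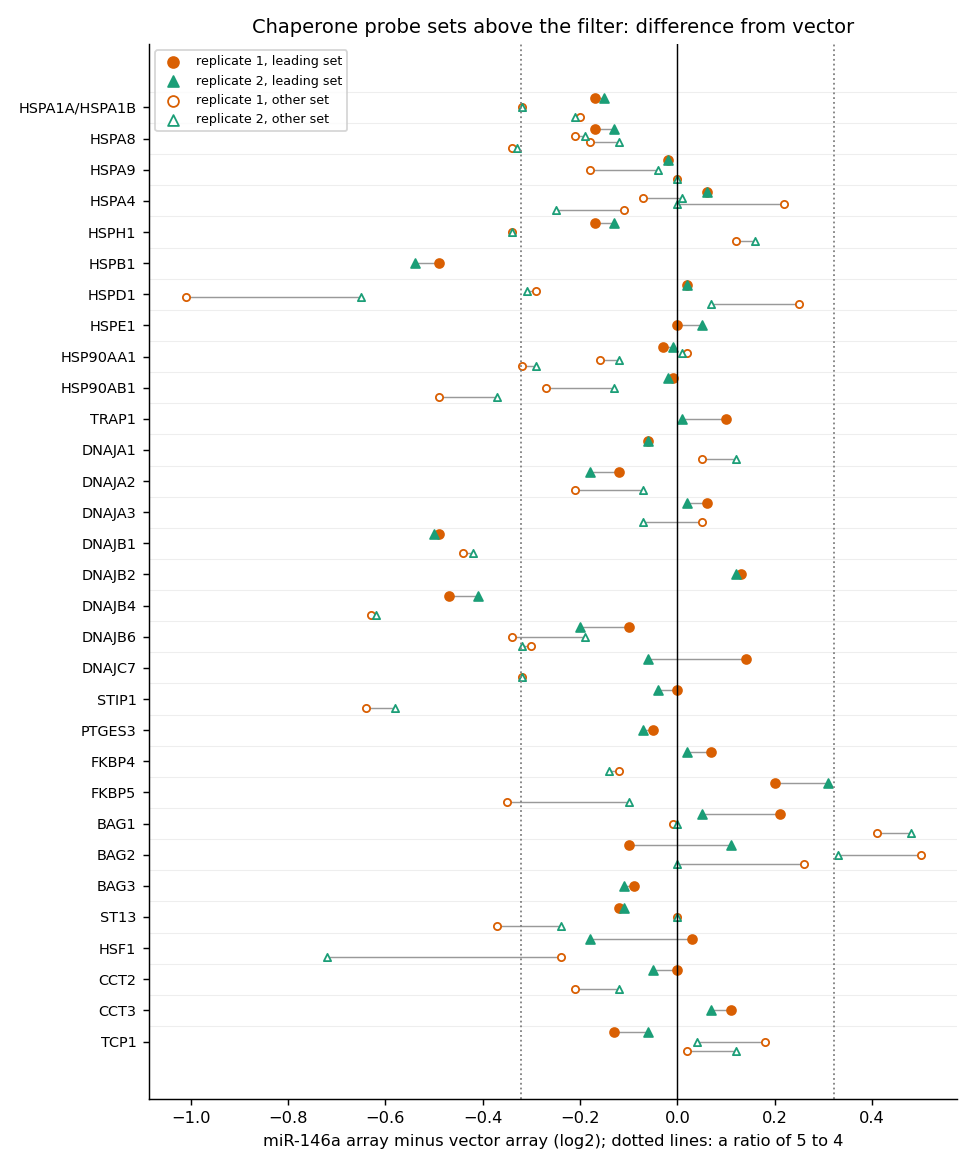
Log2 difference from the vector array of each chaperone probe set above the filter, with replicate 1 as circles and replicate 2 as triangles, joined by a line per set. Filled symbols are the leading set of a gene and open ones its other sets; dotted lines mark a ratio of 5 to 4. HSPB1, DNAJB1 and DNAJB4 lie left of the lower line in every set, while HSPD1, STIP1, HSP90AB1, HSPA8 and HSPH1 do so in 1 set each.

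HSPB1, the small heat shock protein HSP27 that holds unfolding proteins and guards actin filaments, has a single probe set. Its log2 value was 11.58 with the vector and 11.09 and 11.04 with miR-146a. Both miR-146a arrays lay below the vector by far more than they differed from each other. The difference was -0.52 (a 1.43-fold lower signal), with an SD of 0.04 (n = 2) and adjusted p = 0.135 in limma, or 0.00406 with the prior from unequal replicates. HSPB8, a partner of BAG3 in chaperone-assisted autophagy, was below the filter in both of its sets. The brighter one read 4.45 in the vector and 4.38 in each miR-146a array.

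DNAJB1, the stress-inducible J-domain partner of HSP70 also called HSP40, was lower in both of its sets. The leading set read 11.70 in the vector and 11.21 and 11.20 in the miR-146a arrays, a difference of -0.50 (adjusted p = 0.131 in limma, 0.00509 with the prior from unequal replicates). The other set read 11.54, 11.10 and 11.12. In each set both miR-146a arrays lay below the single vector array, as in 33.1% of all probe sets, and the sets gave 1.41-fold and 1.34-fold lower signals. DNAJB4, a related J-domain protein of the cytosol, read 8.12 in the vector and 7.65 and 7.71 in the miR-146a arrays in its leading set. Its other set read 6.13, 5.49 and 5.50, so that the differences were -0.44 and -0.63. Adjusted p was 0.151 and 0.131 in limma, and 0.0113 and 0.00103 with the prior from unequal replicates.

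The remaining J-domain proteins lay nearer the vector or differed between sets. DNAJB6, which suppresses polyglutamine aggregation, was lower in all 3 of its sets, with differences of -0.15 in its own set and -0.26 and -0.31 in the 2 sets it shares with TMEM135. DNAJA2, a cytosolic HSP40 of the DNAJA class, was lower in both arrays in both sets (-0.15 and -0.14). DNAJA1 gave -0.06 and 0.08, and DNAJA3, the mitochondrial J-domain protein, 0.04 and -0.01. DNAJB2, which is best known from neurons, was 0.13 higher. In DNAJC7, an adaptor with TPR repeats, the leading set differed by 0.14 in replicate 1 and -0.06 in replicate 2, whereas a dimmer set read 7.17 in the vector and 6.86 and 6.85 in the miR-146a arrays. Over the 16 J-domain sets above the filter, 11 were lower in both arrays (33.1% of all probe sets) and 3 were higher in both (36.0% of all probe sets). The median difference was -0.15, and several of these sets measure the same gene.

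HSP70 members of the cytosol were lower by small amounts in set after set. The 3 sets shared by HSPA1A and HSPA1B, the inducible HSP70, read 13.72, 13.73 and 12.60 in the vector. In replicate 1 these sets read 13.55, 13.41 and 12.39, and in replicate 2 they read 13.57, 13.41 and 12.39. All 3 were therefore below the vector on both arrays, by -0.16, -0.32 and -0.20. One of them is also annotated to HSPA1L. HSPA8, the constitutive HSC70, was lower in all 4 sets, from -0.15 to -0.34, and the lowest of these read 13.07 in the vector and 12.73 and 12.74 in the miR-146a arrays. That set was 1.26-fold lower (adjusted p = 0.131 in limma, 0.045 with the prior from unequal replicates). Several of these sets carry the suffix that Affymetrix gives to probes matching more than 1 transcript, so signal from near-identical copies cannot be separated.

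The HSP110 exchange factors did not go one way. HSPH1, the inducible HSP110, read 12.68 in the vector and 12.51 and 12.55 in the miR-146a arrays in its leading set. Its dimmer sets differed by -0.34 (11.17 in the vector and 10.83 in each miR-146a array) and 0.14. HSPA4, the constitutive relative, differed by 0.06 in its leading set and from -0.18 to 0.11 in the 3 others. HSPA9, the HSP70 of the mitochondrial matrix known as mortalin, read 11.37 in the vector and 11.35 in both miR-146a arrays, and its other sets above the filter gave -0.11 and 0.00. Over the 17 HSP70 and HSP110 sets above the filter, 12 were lower in both arrays (33.1% of all probe sets) and 2 were higher in both (36.0% of all probe sets). The median was -0.15, and several of these sets measure the same gene.

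**Figure D2:**
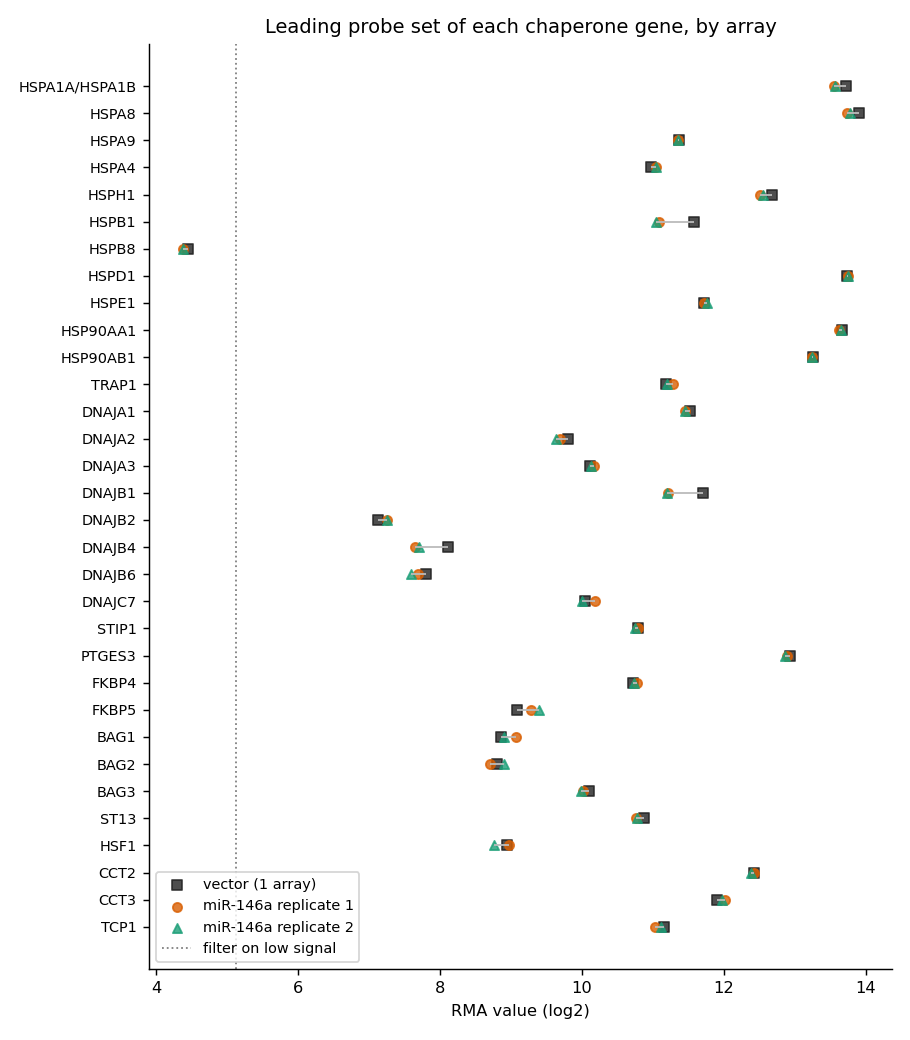
Log2 value of the leading probe set of each chaperone gene in the vector array (squares) and in miR-146a replicates 1 (circles) and 2 (triangles); the dotted line is the filter of 5.13. Squares stand clear of the other symbols for HSPB1, DNAJB1 and DNAJB4, and levels are not comparable between genes.

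In the HSP90 family and the mitochondrial chaperonin, the leading sets matched the vector closely and several dimmer sets read lower, while 1 dimmer set each of HSP90AA1 and HSPD1 did not. HSP90AB1, the constitutive cytosolic HSP90, read 13.25 in the vector and 13.24 in both miR-146a arrays in its leading set. A dimmer set read 10.87, 10.38 and 10.50, a difference of -0.43 (adjusted p = 0.223 in limma, 0.0144 with the prior from unequal replicates), and another differed by -0.20. HSP90AA1, the inducible form, gave -0.02 in its leading set and 0.01, -0.14 and -0.31 in the others. TRAP1, the HSP90 of mitochondria, differed by 0.05 in its only set above the filter. Both cytosolic genes have processed pseudogenes, whose signal the sets may share.

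HSPD1, the HSP60 subunit of the mitochondrial chaperonin, showed the widest disagreement between sets. Its leading set read 13.73 in the vector and 13.75 in both miR-146a arrays. The next set read 12.51, 12.22 and 12.20. A further set read 11.02 in the vector and 10.01 and 10.37 in the miR-146a arrays. Differences of these sets were 0.02, -0.30 and -0.83, the last of them a 1.78-fold lower signal (adjusted p = 0.317 in limma, 0.00074 with the prior from unequal replicates), and a dim set gave 0.16. HSPE1, the HSP10 lid of the same chaperonin, read 11.72 in the vector and 11.72 and 11.77 in the miR-146a arrays, with no difference beyond the replicate spread.

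Co-chaperones of HSP90 repeated this disagreement. STIP1, the HOP adaptor that links HSP70 to HSP90, read 10.79 in the vector and 10.79 and 10.75 in the miR-146a arrays in its leading set. Its other set read 8.88, 8.24 and 8.30, a difference of -0.61 (1.53-fold lower, adjusted p = 0.138 in limma, 0.00133 with the prior from unequal replicates). The value for STIP1 therefore depends on which set is read. FKBP5, the glucocorticoid-induced immunophilin FKBP51, read 9.08 in the vector and 9.28 and 9.39 in the miR-146a arrays, while a dimmer set read 7.63, 7.28 and 7.53. FKBP4, its relative FKBP52, gave 0.04 and -0.13, and PTGES3, the p23 co-chaperone, -0.06.

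HSP70 co-chaperones held the 2 sets that were higher by at least 0.322 on the log2 scale. Both are dim sets of genes whose brighter sets differed less. For BAG1, an exchange factor that couples HSP70 to the proteasome, this set read 5.93 in the vector and 6.34 and 6.41 in the miR-146a arrays, while the leading set differed by 0.13 and another by 0.00. For BAG2, an inhibitor of the ubiquitin ligase CHIP, it read 5.68, 6.17 and 6.01, while the leading set read 8.80 in the vector and 8.70 and 8.90 in the miR-146a arrays, on either side of the vector. BAG3, the stress-inducible member, differed by -0.10 and ST13, the HIP protein that stabilises ADP-bound HSP70, by -0.11 in its leading set and by 0.00 and -0.31 in its others.

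HSF1, the main activator of the heat shock response, read 8.94 in the vector and 8.98 and 8.76 in the miR-146a arrays, so the replicates lay on either side of the vector. Its dim set read 5.41, 5.18 and 4.69, and the replicates differed by more here (SD 0.34, n = 2) than in any other member set above the filter. The difference of -0.48 had an adjusted p of 0.58 in limma and of 0.049 with the prior from unequal replicates. Subunits of the TRiC chaperonin, which folds actin and tubulin, stayed within -0.16 to 0.11 over 6 sets. CCT3 differed by 0.09, the leading set of CCT2 by -0.03 and that of TCP1 by -0.09.

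Disagreement between the sets of a gene was set against all genes. In 24 chaperone genes with more than 1 set above the filter (HSPA1A and HSPA1B counted as 1), 41 dimmer sets could be compared with the brightest set. Of these, 24 lay below it in both arrays (45.7% of pairs over all genes), 6 lay at least 0.322 below it on the mean log2 difference (9.60% over all genes) and 1 lay at least 0.322 above it (3.48% over all genes). The shares over all genes come from sets annotated to 1 gene, while the 41 member pairs also include sets shared between genes, so the comparison is not fully alike. In 9 of the 24 genes the differences of the sets spanned at least 0.322. This count was not made over all genes, so it cannot show that chaperone genes disagree more than others. In the same arrays the 5′ control set of GAPDH differed from the vector by -0.32 and -0.30 and that of ACTB by -0.29 and -0.18. The 3′ sets differed by -0.03 and -0.02 for GAPDH and by 0.05 and 0.04 for ACTB, and the middle sets lay between. The files used here do not place the member sets along their transcripts, and the part of transcript position in the lower values was not tested.

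**Figure D3:**
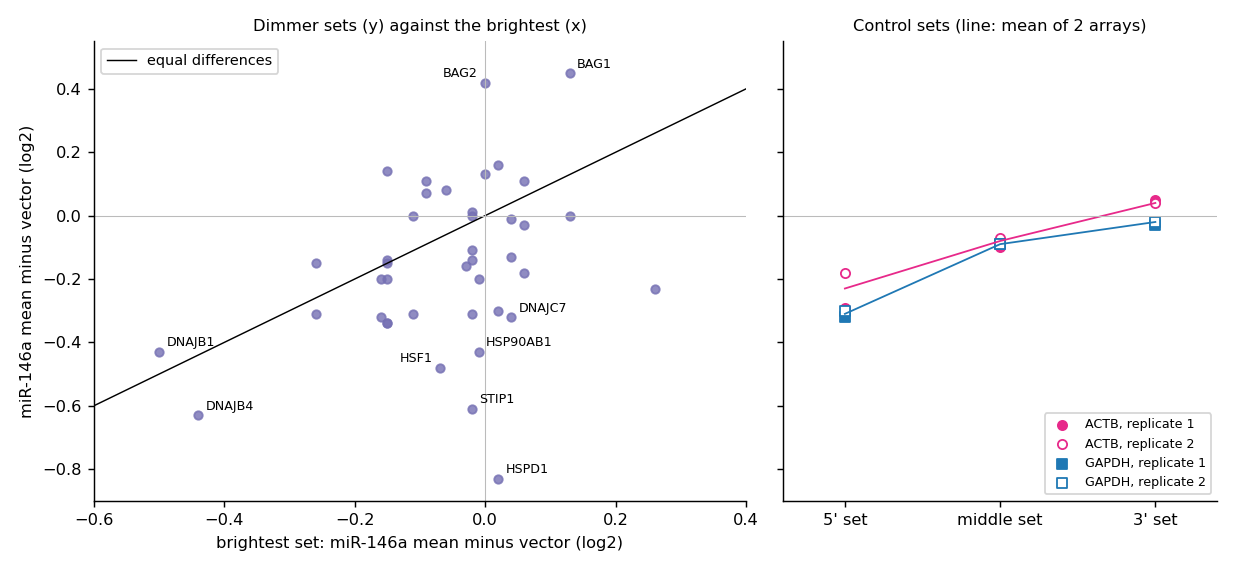
Left, the log2 difference from the vector (mean of the 2 miR-146a arrays) of each dimmer chaperone set against that of the brightest set of its gene, with a line of equal differences; right, the same difference for the 5′, middle and 3′ control sets of ACTB and GAPDH, per array. HSPD1 (-0.85 from the brightest set), STIP1 (-0.59), FKBP5 (-0.48), HSP90AB1 (-0.42) and HSF1 (-0.40) lie farthest below the line, BAG1 and BAG2 lie above it, and the control sets read lower at the 5′ end than at the 3′ end.

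Other genes of the chaperone network, listed by family, lay on both sides of the vector. Of 91 related genes above the filter, 28 were lower in both arrays (against 28.8% of all genes) and 29 higher in both (against 40.2%), with a median log2 difference of 0.00. Limma called 0 of them (10 lower and 9 higher at an unadjusted p under 0.05, against 10.9% and 12.4% of all sets). With the prior from unequal replicates 1 of the 91 was lower (against 4.78% of all sets) and 0 were higher (against 4.14%). That gene was CLU, the secreted chaperone clusterin and an HSF1 target, which read 8.56 in the vector and 7.78 and 7.71 in the miR-146a arrays, with its other set at -0.87. HSPA6, a strictly inducible HSP70, read 9.99 in the vector and 9.70 in each miR-146a array, with its other set at -0.37. DNAJA4, another inducible J-domain protein, differed by -0.26, with other sets from -0.47 to -0.04.

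The genes named next, and HSPA6, DNAJA4 and CLU above, were picked in each list, among genes on the same side of the vector in both arrays, for the largest value of the smaller array difference, so others can have a larger mean. Among further HSP70 genes this was HSPA2 at 0.32 on the higher side, and among J-domain genes DNAJC11 at 0.31, with its other set at -0.03. The list of other HSF1 targets had 9 of 16 members lower (against 28.8% of all genes) and 4 higher (against 40.2%) in both arrays, with a median of -0.08 and MLLT11 at 0.24. The 5 further TRiC subunits had a median of 0.01, with CCT6A at -0.04 and CCT5 at 0.04. The 8 prefoldin genes, whose complex hands actin and tubulin to TRiC, also had a median of 0.01, with VBP1 at -0.05 and PFDN1 at 0.07. HSP90 co-chaperones outside the 35 genes had a median of -0.02 over 15 genes, with CACYBP at -0.10 and FKBPL at 0.14. Mitochondrial quality control genes lay at a median of 0.01 over 11 genes, with CLPX at -0.17 and GRPEL1, the exchange factor of HSPA9, at 0.22. HSPBP1, an HSP70 co-chaperone, was at 0.16, and of the regulators of heat shock factors HSF4 was at -0.14 and EP300 at 0.10. None of the 7 other small heat shock protein genes measured was above the filter.

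**Figure D4:**
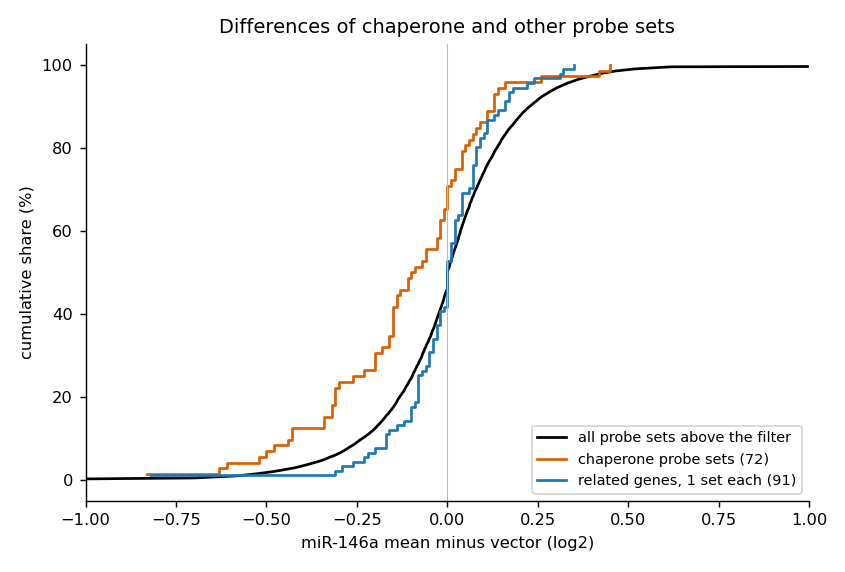
Cumulative share (%) of the log2 difference from the vector (mean of the 2 miR-146a arrays) for the 72 chaperone sets above the filter, for 91 related genes with 1 set each and for all 27306 probe sets above the filter. The chaperone curve lies left of the curve for all sets over most of its range, with medians of -0.10 and 0.00. The related genes have a median of 0.00, and with 1 leading set per gene the chaperones have one of -0.02.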

How the data were processed

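Biotin-labelled RNA was read on Affymetrix arrays. The authors deposited log2 values per probe set, made with RMA per the submitters' processing notes; its version and the set of arrays it was run on are not given. Names came from the supplied platform annotation, with symbols updated by Entrez number: 41097 sets had 1 gene, 1801 several, and 11721 non-control sets none here. The members and lists were chosen with earlier results of these data known. Arrays were grouped by the labelled transduction, and none was left out.

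The fit used limma 3.58.1 in R 4.3.3 (lmFit, then eBayes), two-sided with Benjamini-Hochberg adjustment at 0.05, over the 27306 probe sets whose average signal exceeded 5.13. It leaves 1 residual degree of freedom, from the miR-146a arrays. The fit was tested on simulated data. Sizes required a log2 difference of 0.322 in each replicate. Every member is named; from each related or marker list, the highest and lowest gene by the smaller array difference among genes on the same side in both arrays. Alternatives covered the unit of the fit, shared sets, filter, prior, normalization and replicates. The number of arrays limits the precision. Figures used matplotlib 3.10.9.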

Additional observations from a re-analysis of the deposited data

How the results depend on the processing

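With the prior from unequal replicates, 11 member sets were called lower and 2 higher, against 0 and 0 in the other settings tested with limma; the reported fit called none of the changed sets on simulated arrays with such ties, so its 0 is no sign of stability. With 1 probe set per gene (shared sets left out), 3 members were past the size as lower (1.95% of all genes) and 0 as higher (3.79%). In that setting 14 lay below the vector in both arrays (28.8% of all genes) and 9 above it (40.2%). With the mean of the sets of a gene these counts were 3, 0, 17 and 5, and no shares over all genes were taken for it. Dimmer sets differed from the brightest set of their gene by a median of -0.04 over all genes and -0.09 over the members. The member median with the mean of the sets was -0.10 in place of -0.02, with no median over all genes beside it. Fewer units are counted in both settings. That mean turned the sign for HSPA4 (-0.01), HSPD1 (-0.20), TRAP1 (-0.01), DNAJA1 (0.01), DNAJC7 (-0.26) and FKBP4 (-0.03), and the averages take in sets below the filter. With the filter at percentile 70, 0 sets were past the size as higher, since the dim BAG1 and BAG2 sets drop out. Leaving out either miR-146a replicate gave medians from -0.05 to -0.02, differences from -0.06 to 0.14 for DNAJC7 and from -0.18 to 0.03 for HSF1, as values with no test. The differences of HSPB1, DNAJB1 and DNAJB4 kept their sign under every alternative run. These genes were singled out because every set above the filter read lower in both arrays by at least 0.322. Leaving out a replicate, averaging sets or taking 1 set therefore could not turn the sign, which is no evidence of stability. Cyclic loess or quantile normalization moved the median of all sets by at most 0.01. No paired analysis was possible because the single vector array shares no replicate number with the miR-146a arrays in the labels.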
